A study of Saccharomyces cerevisiae with 12 samples.

Results

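The genes described here are 36 nuclear genes of budding yeast (Saccharomyces cerevisiae) that encode subunits of the respiratory chain and of the ATP synthase. They were taken from a list of gene identifiers by what they encode, a list drawn up with earlier results of these data known, and all 36 were found among the 7130 gene identifiers counted in the 12 libraries. By role they fall into 4 genes of complex II, 9 of complex III, 8 of complex IV, 11 of complex V, both cytochrome c genes and 2 NADH dehydrogenase genes. All 36 passed the filter on low counts in each comparison below.

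Mitochondrial respiration passes electrons from NADH and succinate through ubiquinone to complex III, then through cytochrome c to complex IV and oxygen, and the ATP synthase (complex V) uses the proton gradient built on the way. Budding yeast has no proton-pumping complex I, and its NADH dehydrogenases are enzymes of a single polypeptide; complex II is succinate dehydrogenase. Complexes III, IV and V are assembled from nuclear and mitochondrial gene products, whereas complex II and cytochrome c are wholly nuclear. On glucose, yeast ferments and represses most of these genes, and it raises them when it turns to respiration.

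The libraries came from 2 treatments, and no strain or genotype was given. Overnight cultures of 3 yeast colonies were each split between medium without drug (untreated) and medium with 10 µM of the Hsp90 inhibitor radicicol (pre-treated) for a further night. Both were then diluted to an OD600 of 0.001 in medium, regrown for 24 h and collected by filtration, so every pre-treated library was made after regrowth from a high dilution. Each treatment has 3 RNA-seq libraries, from poly(A)-selected RNA broken into pieces of 27 to 33 nt, and 3 ribosome profiling libraries, which hold the fragments that ribosomes protect from RNase I. Neither the density of the cultures at harvest nor a spike-in was given, so a change is a change in a gene's share of its library, and a change in all cells cannot be told apart from a larger one in some of them. P-values rest on how far cultures of the same treatment differ.

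Library totals ran from 737922 counts in RNA of untreated replicate 3 to 2481336, so 3 counts correspond to between 1.21 and 4.07 CPM of the library total; CPM elsewhere use library sizes scaled by TMM. The members together took 0.872% to 0.951% of the counts of an RNA library and 1.07% to 1.17% of those of a fragment library, and their counts in single libraries ran from 26 to 2828. The mitochondrial chromosome has 55 identifiers in the annotation, and each had a count of 0 in every library, so the partners that it encodes in complexes III, IV and V were not measured. Coordinates are those of the R64-1-1 build in the file headers. ATP14 overlaps YLR294C over 32 bases on the same strand, where reads fall to neither gene, and ATP1 overlaps YBL100C over 251 bases on the opposite strand.

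In untreated cultures, the genes of complexes IV and V had the highest fragment levels per length and those of complex II the lowest. The level was measured as TPM, counts per kilobase of gene scaled to the same total in every library. The median fragment level was 98.2 TPM over the genes of complex II, 255 for complex III, 690.2 for complex IV and 598 for complex V. It was 126 TPM for the cytochrome c genes and 323 for the NADH dehydrogenase genes. In RNA the medians were 85.5 TPM for complex II, 353 for complex III, 420.1 for complex IV, 406 for complex V, 92.0 for cytochrome c and 188 for the NADH dehydrogenases. These levels order the complexes in these cultures, and no test between complexes was made, since the genes of a complex are not replicates.

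**Figure D1:**
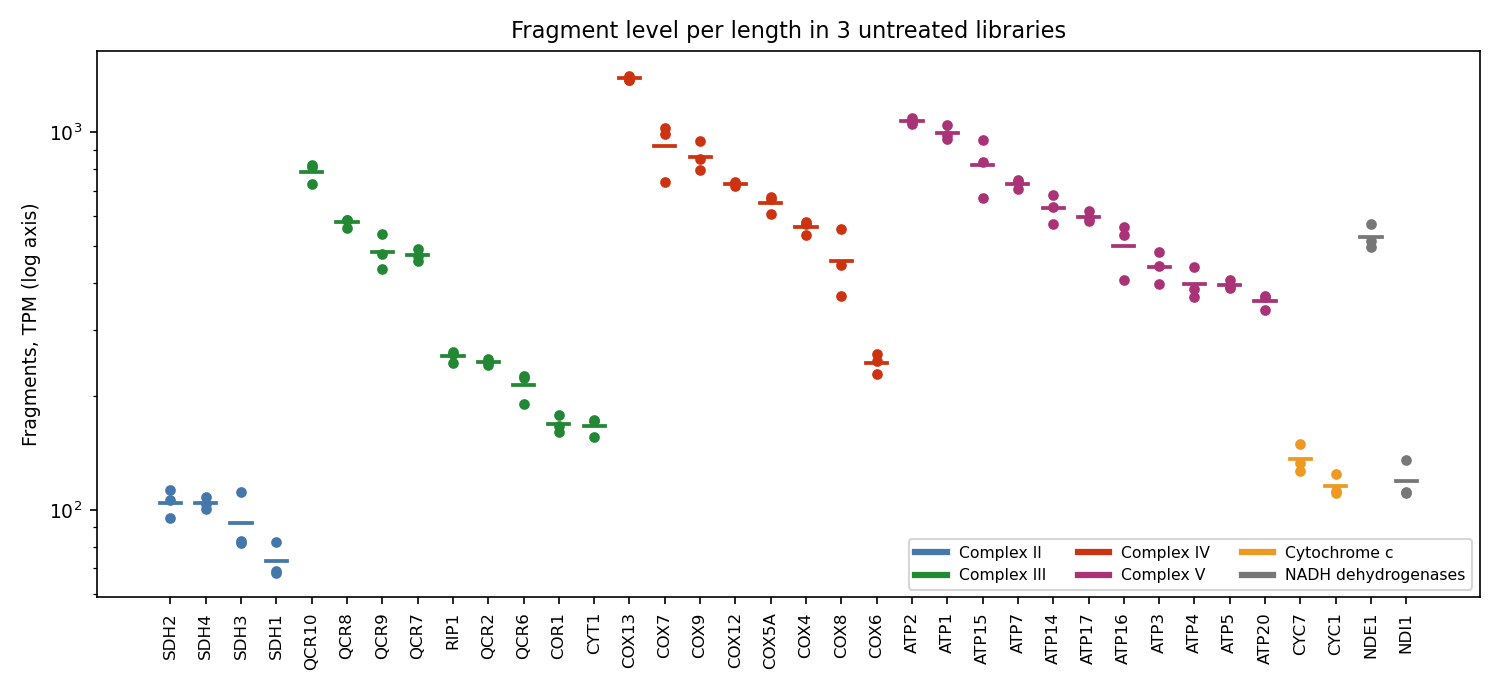
Fragment level of each of the 36 genes in the 3 untreated ribosome profiling libraries, in TPM on a log axis, with genes grouped by complex and sorted within it. Points are libraries and bars their means; the genes of complex II lie within a 1.43-fold range, while those of complex IV span 5.66-fold, from COX6 to COX13.

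Within complex II the fragment levels lay close together, from 73.1 ± 7.95 TPM (SD, n = 3) for SDH1 to 105 ± 8.91 TPM for SDH2, a 1.43-fold range. Complex III spanned 4.72-fold, from 167 ± 9.41 TPM for CYT1 (cytochrome c1) to 787 ± 50.1 TPM for QCR10, a small peripheral subunit. In complex IV, COX13 reached 1388 ± 21.3 TPM and COX6 only 245 ± 15.1 TPM. Complex V spanned 2.99-fold, from 357 ± 16.5 TPM for ATP20 (subunit g) to 1069 ± 20.4 TPM for ATP2 (subunit beta).

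The catalytic head of the ATP synthase holds several alpha and beta subunits for each gamma subunit, which makes the ratio to gamma a useful scale. In untreated fragments, ATP1 (alpha) stood at 2.27 ± 0.20 times the TPM of ATP3 (gamma) and ATP2 (beta) at 2.44 ± 0.23 times (SD, n = 3). In pre-treated fragments these ratios were 2.18 ± 0.13 and 2.57 ± 0.13, with overlapping ranges for both. ATP16 (delta) was at 1.13 ± 0.10 times ATP3 before and 0.993 ± 0.046 after pre-treatment. ATP15 (epsilon) was at 1.87 ± 0.31 times in untreated fragments and 1.41 ± 0.07 in pre-treated ones, and these ranges were apart. Of the stalk and membrane subunits, ATP4 (b) was at 0.905 ± 0.101, ATP5 (the oligomycin sensitivity protein) at 0.898 ± 0.074 and ATP20 at 0.816 ± 0.091 times ATP3. ATP7 (d), at 1.67 ± 0.21, ATP14 (h), at 1.44 ± 0.24, and ATP17 (f), at 1.36 ± 0.10, lay above it. In RNA the scale was wider, with ATP15 at 5.99 ± 0.98 and ATP7 at 3.31 ± 0.36 times ATP3.

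Most members carried more fragments per RNA than the typical gene. Translational efficiency was taken as the log2 ratio of fragments to RNA, with the median gene set to 0. Each ratio pairs the libraries of the same treatment and replicate number, which the labels do not tie to a colony. In untreated cultures 31 of the 36 members lay above the median gene and 28 lay above the 75th percentile of all genes, with a median of 0.76 over the members. The median was 0.33 for complex II, 0.66 for complex III, 0.94 for complex IV and 0.74 for complex V, and all 8 genes of complex IV lay above that percentile.

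RIP1, the Rieske iron-sulfur protein of complex III, had the highest ratio of the members, 2.20 ± 0.19 (SD, n = 3), which is the 99.7th percentile of all genes. It was 2.19, 2.02 and 2.40 in the untreated pairs of libraries and 2.42, 2.10 and 1.81 in the pre-treated ones. NDI1, the internal NADH dehydrogenase, followed with 1.58 ± 0.11, then ATP14 with 1.45 ± 0.16, COX4 with 1.27 ± 0.15 and QCR10 with 1.23 ± 0.12. At the other end were QCR6, the acidic hinge protein of complex III, with -0.89 ± 0.27, and ATP15 with -0.59 ± 0.56. The 3 untreated values of ATP15 were spread widely, at -1.23, -0.23 and -0.30. ATP4 (-0.07 ± 0.16), SDH3 (-0.10 ± 0.07) and QCR7 (-0.01 ± 0.13) were the other members below the median gene.

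**Figure D2:**
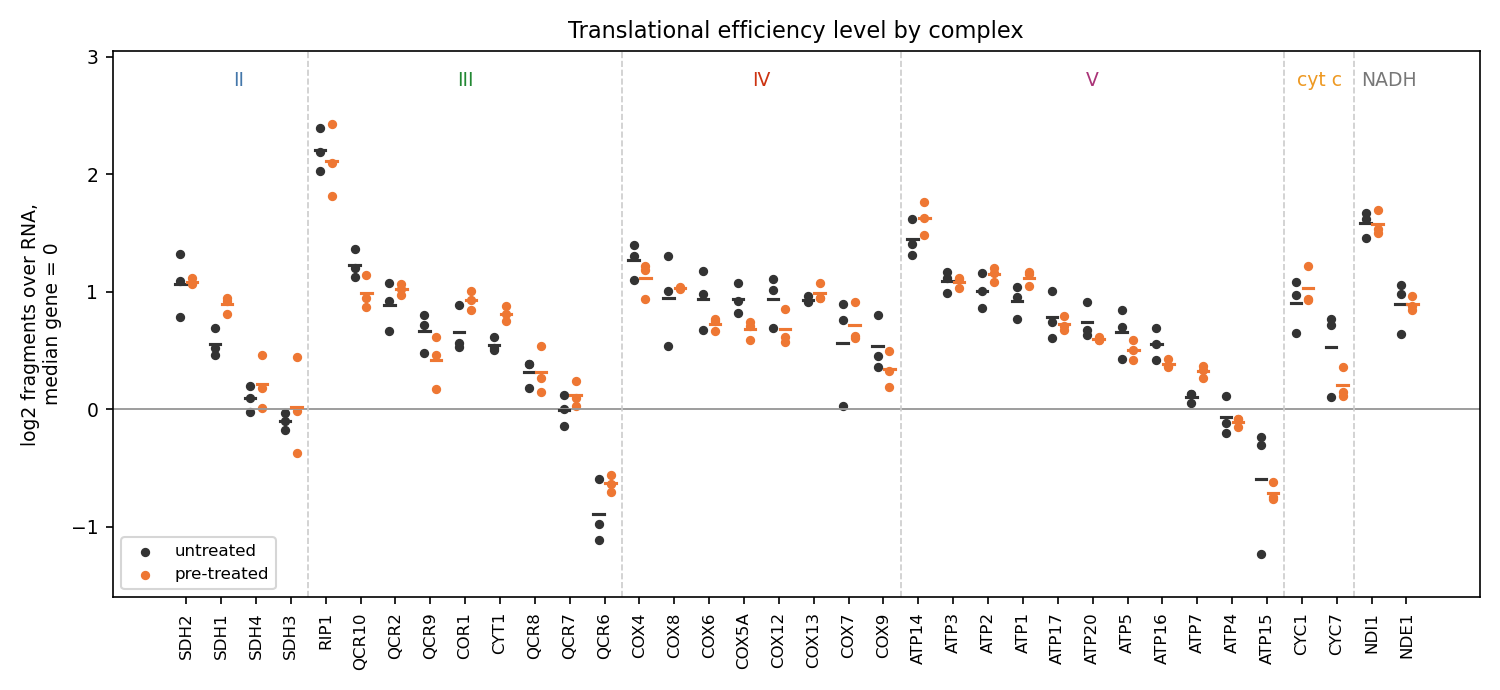
Log2 ratio of fragments to RNA for each of the 36 genes, with the median gene at 0, in untreated and pre-treated libraries. Points are pairs of libraries with the same treatment and replicate number, and bars are means of 3. RIP1 stands highest with an untreated mean of 2.20 and QCR6 lowest with -0.89.

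The comparison of pre-treated with untreated cultures asked which of these genes differed after regrowth without the drug. In RNA, CYC1, CYC7, SDH2, RIP1 and COX6 rose and COX7, ATP1 and ATP15 fell, which is 8 of 36 members. Over all 5578 genes tested in RNA 13.2% were called, 7.17% higher and 6.06% lower. In fragments, 8 members rose, namely SDH1, SDH2, COR1, QCR2, CYT1, RIP1, QCR7 and CYC1, and COX5A, COX12 and ATP15 fell. That is 11 of 36, beside 13.4% of the 5090 genes tested in fragments, 8.53% higher and 4.85% lower.

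A call is an adjusted p under 0.05 in edgeR's quasi-likelihood test with Benjamini-Hochberg adjustment over all genes tested. An unadjusted p under 0.05 was found for 13 members in RNA and 19 in fragments. Over all genes it was found for 1463 of 5578 tested in RNA and 1277 of 5090 in fragments. Members called in RNA were 5 without untreated replicate 2 and 4 without pre-treated replicate 1. They were 5 without pre-treated replicate 2 or 3, and 5 with DESeq2. Over all genes the RNA calls in these settings were, in the same order, 743, 543, 407, 505 and 492, in place of 738. In fragments 6 members were called without untreated replicate 2 and 6 without pre-treated replicate 2. Over all genes these settings gave 549 and 442 fragment calls, in place of 681. With upper-quartile scaling the 13 fragment calls were 6 higher and 7 lower, in place of 8 and 3, and over all genes the split went from 434 higher and 247 lower to 364 and 330.

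The changes in RNA and in fragments had the same sign for 31 of the 36 members. Across these genes, which are not independent replicates, Pearson's r was 0.83 and Spearman's rho 0.74. Of the 15 members called in either measure, 4 were called in both, namely SDH2, RIP1, CYC1 and ATP15, 4 in RNA alone and 7 in fragments alone; whether a change differed between RNA and fragments is given by the efficiency test further on. The libraries of both groups did not overlap for 16 members in RNA (9 higher, 7 lower) and for 16 in fragments (11 higher, 5 lower). Over all genes the shares without overlap were 16.2% higher and 13.8% lower in RNA, and 15.9% and 13.6% in fragments.

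**Figure D3:**
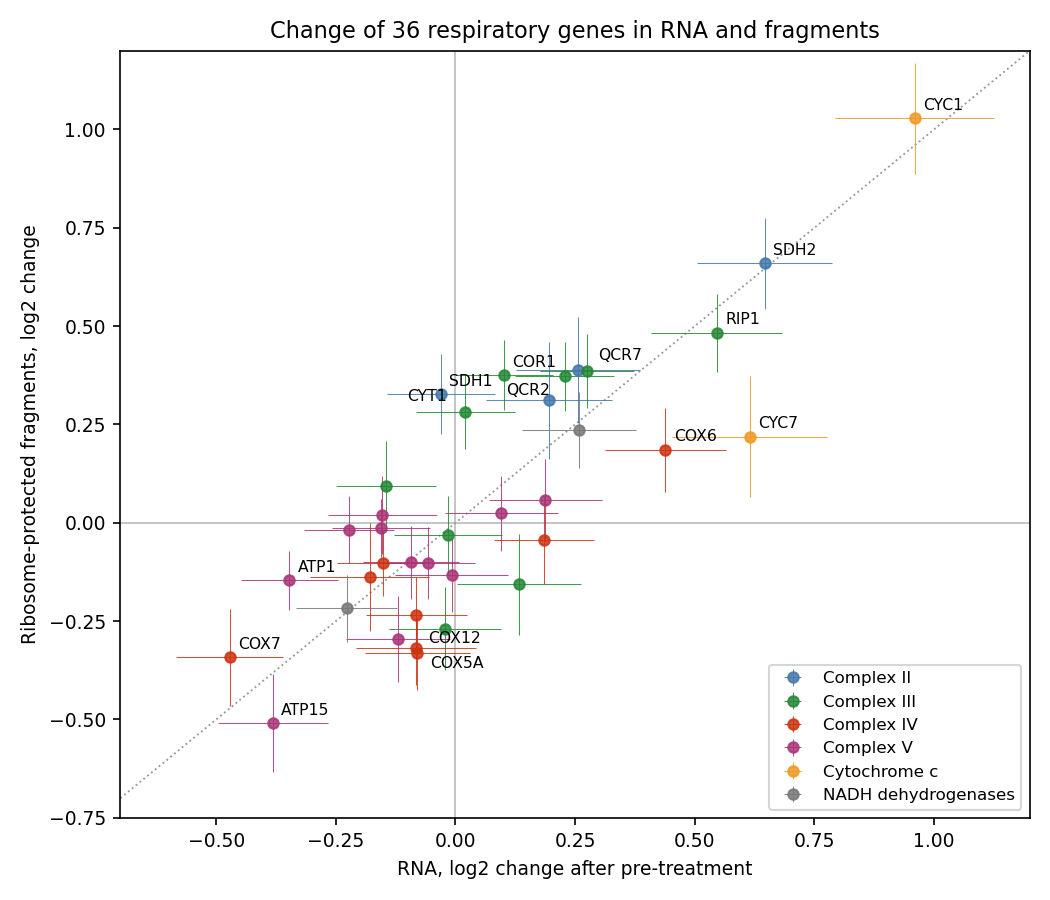
Fitted log2 change after pre-treatment of each of the 36 genes in RNA (horizontal) and in ribosome-protected fragments (vertical), coloured by complex, with standard errors as bars and the dotted line marking equal change. Genes called in either measure are named; CYC1 lies farthest to the upper right, and the genes of complexes II and III lie mostly above 0 in fragments while those of complexes IV and V lie mostly below.

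The complexes differed in the direction of their medians. In fragments the median log2 change was 0.36 for complex II and 0.28 for complex III, against -0.19 for complex IV and -0.10 for complex V, beside -0.009 over all genes tested. In RNA the medians were 0.23, 0.10, -0.08 and -0.12, beside -0.002 over all genes. The complexes also differ in gene length. Genes ran from 546 to 1923 nt in complex II and from 201 to 1374 nt in complex III. They ran from 180 to 468 nt in complex IV and from 189 to 1638 nt in complex V. The part of gene length in the levels, changes and efficiencies of the complexes was not tested. In fragments, 2 of 4 genes of complex II and 5 of 9 of complex III were called higher. Called lower were 2 of 8 in complex IV and 1 of 11 in complex V. Over all genes tested in fragments, 8.53% were called higher and 4.85% lower. The calls of SDH1 and CYT1 ended in 8 and 12 of the 12 alternatives. No gene of complexes II or III was called lower. The share of a fragment library taken by complex II was 0.0353% to 0.0398% untreated and 0.0478% to 0.0479% pre-treated. For complex III it was 0.167% to 0.173% untreated and 0.188% to 0.197% pre-treated. Complex IV went the other way, from 0.189% to 0.213% untreated to 0.168% to 0.177% pre-treated, and complex V from 0.593% to 0.630% untreated to 0.549% to 0.561% pre-treated. In fragments the untreated and pre-treated ranges of all 4 were apart, while in RNA those of complex IV overlapped, at 0.135% to 0.144% untreated and 0.135% to 0.139% pre-treated. The RNA median of complex IV turned to 0.01 without untreated replicate 2, and the medians of complex V without it were -0.04 in RNA and -0.01 in fragments. The RNA median of complex III was 0.04 without untreated replicate 1 or 3 and 0.16 without untreated replicate 2, and that of complex II was 0.13 without pre-treated replicate 1. The fragment medians without untreated replicate 1 were -0.29 for complex IV and -0.06 for complex V.

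Complex II oxidises succinate in the tricarboxylic acid cycle and hands the electrons to ubiquinone. SDH2, its iron-sulfur subunit (YLL041C, chromosome XII, 53131 to 53931, minus strand), was the member of complex II that rose in both measures. Its RNA was at 50.4, 67.0 and 58.1 CPM in the untreated libraries and 105, 87.0 and 82.7 CPM in the pre-treated ones. Fragments on SDH2 were at 94.4, 85.4 and 91.2 CPM in the untreated libraries and 162, 133 and 133 CPM in the pre-treated ones. Both measures had the groups apart. The rise was 1.56-fold in RNA (log2 0.65, SE 0.14, adjusted p = 0.00229) and 1.58-fold in fragments (log2 0.66, SE 0.12, adjusted p = 0.000171), and it was called under all 12 alternatives run in each.

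SDH1 (YKL148C, chromosome XI, 169207 to 171129, minus strand), the flavoprotein that binds succinate, rose in fragments, from 166, 148 and 141 CPM untreated to 192, 180.2 and 198 CPM pre-treated. All 3 pre-treated values lay above the untreated ones (1.25-fold, log2 0.33, SE 0.10, adjusted p = 0.0293). The call ended with upper-quartile scaling (adjusted p = 0.0683), with DESeq2 (0.124), and without untreated replicate 2 (0.086) or 3 (0.138) or pre-treated replicate 1 (0.0719), 2 (0.0581) or 3 (0.108). Its RNA was at 154, 146 and 119 CPM untreated and 136, 141 and 141 CPM pre-treated, with overlapping groups (log2 -0.03, SE 0.11, adjusted p = 0.896). The membrane anchor genes SDH3 (log2 0.31, SE 0.15, adjusted p = 0.193) and SDH4 (log2 0.39, SE 0.14, adjusted p = 0.0583) did not pass in fragments. SDH3 fragments were at 69.6, 54.9 and 53.2 CPM untreated and 63.3, 85.7 and 71.2 CPM pre-treated, and SDH4 fragments at 59.2, 66.4 and 59.1 CPM untreated and 77.8, 91.1 and 74.2 CPM pre-treated; only the SDH4 groups were apart.

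Complex III carries electrons from ubiquinol to cytochrome c, with cytochrome c1 and the Rieske protein as its nuclear-encoded redox subunits. RIP1 (YEL024W, chromosome V, 107260 to 107907, plus strand), the Rieske protein, rose in both measures. Its RNA stood at 51.9, 59.3 and 46.2 CPM in the untreated libraries and 69.4, 81.6 and 84.6 CPM in the pre-treated ones. RIP1 fragments were at 178, 178 and 179.9 CPM untreated and 274, 254 and 222 CPM pre-treated. The untreated fragment values lay close together, and every pre-treated value was above them. RNA was 1.46-fold higher (log2 0.55, SE 0.14, adjusted p = 0.00782) and fragments 1.40-fold higher (log2 0.48, SE 0.10, adjusted p = 0.000986), and both calls held under every alternative run.

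The large core proteins, which face the matrix, rose in fragments. COR1 (YBL045C, chromosome II, 134143 to 135516, minus strand) was at 239, 248 and 264 CPM untreated and 322, 315 and 336 CPM pre-treated, a 1.30-fold rise (log2 0.38, SE 0.09, adjusted p = 0.00421). QCR2 (YPR191W, chromosome XVI, 919381 to 920487, plus strand) was at 280.0, 312 and 293 CPM untreated and 404, 372 and 372 CPM pre-treated, a 1.29-fold rise (log2 0.37, SE 0.09, adjusted p = 0.00422). In both the pre-treated libraries lay above all untreated ones, and both were called under every alternative run. In RNA, COR1 was at 217, 233 and 194 CPM untreated and 230.3, 241 and 225 CPM pre-treated (log2 0.10, SE 0.10, adjusted p = 0.57) and QCR2 at 236, 224 and 189 CPM untreated and 263, 259.6 and 246 CPM pre-treated (log2 0.23, SE 0.10, adjusted p = 0.158). The RNA groups overlapped for COR1 and were apart for QCR2.

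QCR7 (YDR529C, chromosome IV, 1496165 to 1496548, minus strand), a subunit that binds early to cytochrome b, had fragments at 198, 203 and 188 CPM untreated and 254, 277 and 240.4 CPM pre-treated. It rose 1.31-fold (log2 0.39, SE 0.09, adjusted p = 0.00538), with the groups apart, and did not pass without pre-treated replicate 2 (adjusted p = 0.0679). In RNA its groups were also apart, at 243, 275 and 283 CPM untreated and 324, 323 and 318 CPM pre-treated, and the test did not pass (log2 0.28, SE 0.10, adjusted p = 0.0656). CYT1 (YOR065W, chromosome XV, 447439 to 448368, plus strand), cytochrome c1, had fragments at 168, 163 and 171 CPM untreated and 194, 206 and 209 CPM pre-treated (log2 0.28, SE 0.10, adjusted p = 0.0499). Its groups were apart, but the adjusted p lies at the threshold, and each of the 12 alternatives gave one above it, from 0.0514 to 0.191. CYT1 RNA was at 158, 154 and 152 CPM untreated and 157, 161 and 153 CPM pre-treated (log2 0.02, SE 0.10, adjusted p = 0.922).

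The other small subunits of complex III did not pass in either measure. QCR6 had the lowest RNA change of the complex, with 274, 231 and 268 CPM untreated and 253, 229 and 214 CPM pre-treated and overlapping groups (log2 -0.14, SE 0.11, adjusted p = 0.405). QCR10 had its lowest fragment change, with 198, 215 and 183 CPM untreated and 186, 164 and 148 CPM pre-treated and overlapping groups (log2 -0.27, SE 0.11, adjusted p = 0.0982); it was called lower with upper-quartile scaling (adjusted p = 0.0474) and without pre-treated replicate 1 (0.0421). The fragment changes of QCR8 (log2 -0.03) and QCR9 (log2 -0.16) had SEs of 0.10 and 0.13.

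Complex IV reduces oxygen to water, and its 8 nuclear genes measured here surround a core that the mitochondrial genome encodes. COX6 (YHR051W, chromosome VIII, 209705 to 210151, plus strand) was its only member called higher, in RNA, at 81.8, 74.7 and 93.7 CPM untreated and 121, 104 and 108 CPM pre-treated. No untreated value reached the pre-treated ones (1.36-fold, log2 0.44, SE 0.13, adjusted p = 0.0204). This call ended with DESeq2 (adjusted p = 0.0815) and without untreated replicate 2 (0.0815) or pre-treated replicate 1 (0.129), 2 (0.053) or 3 (0.0517). COX6 also had the highest fragment change of the complex, at 121, 125 and 109.8 CPM untreated and 142, 129 and 134 CPM pre-treated, with the groups apart (log2 0.19, SE 0.11, adjusted p = 0.294).

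COX7 (YMR256C, chromosome XIII, 778945 to 779127, minus strand) fell in RNA, where it was at 185, 153 and 156 CPM untreated and 125, 114 and 118 CPM pre-treated. All pre-treated values were below the untreated ones (0.721 times the untreated level, log2 -0.47, SE 0.11, adjusted p = 0.0049), and the call held under every alternative run. Its fragments were at 142, 211 and 194 CPM untreated and 142, 157 and 134 CPM pre-treated (log2 -0.34, SE 0.12, adjusted p = 0.0726). There untreated replicate 1 lay within the range of the pre-treated libraries, and without it the fragment change was called lower (adjusted p = 0.00113), as it was over all 6 libraries with upper-quartile scaling (0.0356) and with no filter (0.0279).

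COX5A (YNL052W, chromosome XIV, 531725 to 532186, plus strand), the isoform of subunit V used with oxygen, fell in fragments, from 322, 349.6 and 302 CPM untreated to 271, 237 and 267 CPM pre-treated. The groups were apart (0.795 times, log2 -0.33, SE 0.09, adjusted p = 0.0161), and the call ended without untreated replicate 2 (adjusted p = 0.0909) or pre-treated replicate 2 (0.145). COX12 (YLR038C, chromosome XII, 224921 to 225172, minus strand), a subunit on the side of the intermembrane space, had fragments at 195, 203 and 198 CPM untreated and 159, 155 and 165 CPM pre-treated. It fell to 0.803 times the untreated level with the groups apart (log2 -0.32, SE 0.10, adjusted p = 0.0249). The COX12 call ended with DESeq2 (adjusted p = 0.108) and without untreated replicate 2 (0.072) or 3 (0.0668) or pre-treated replicate 1 (0.0728) or 2 (0.119). RNA of COX5A was at 204, 269.6 and 217 CPM untreated and 221, 216 and 220.0 CPM pre-treated (log2 -0.08, SE 0.11, adjusted p = 0.692), and RNA of COX12 at 129, 171 and 125 CPM untreated and 120.2, 139 and 149 CPM pre-treated (log2 -0.08, SE 0.13, adjusted p = 0.726), both with overlapping groups. COX4, COX8, COX9 and COX13 were called in neither measure, with log2 changes between -0.18 and 0.18 in RNA and between -0.23 and -0.04 in fragments, where COX4 was called lower without untreated replicate 1.

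**Figure D4:**
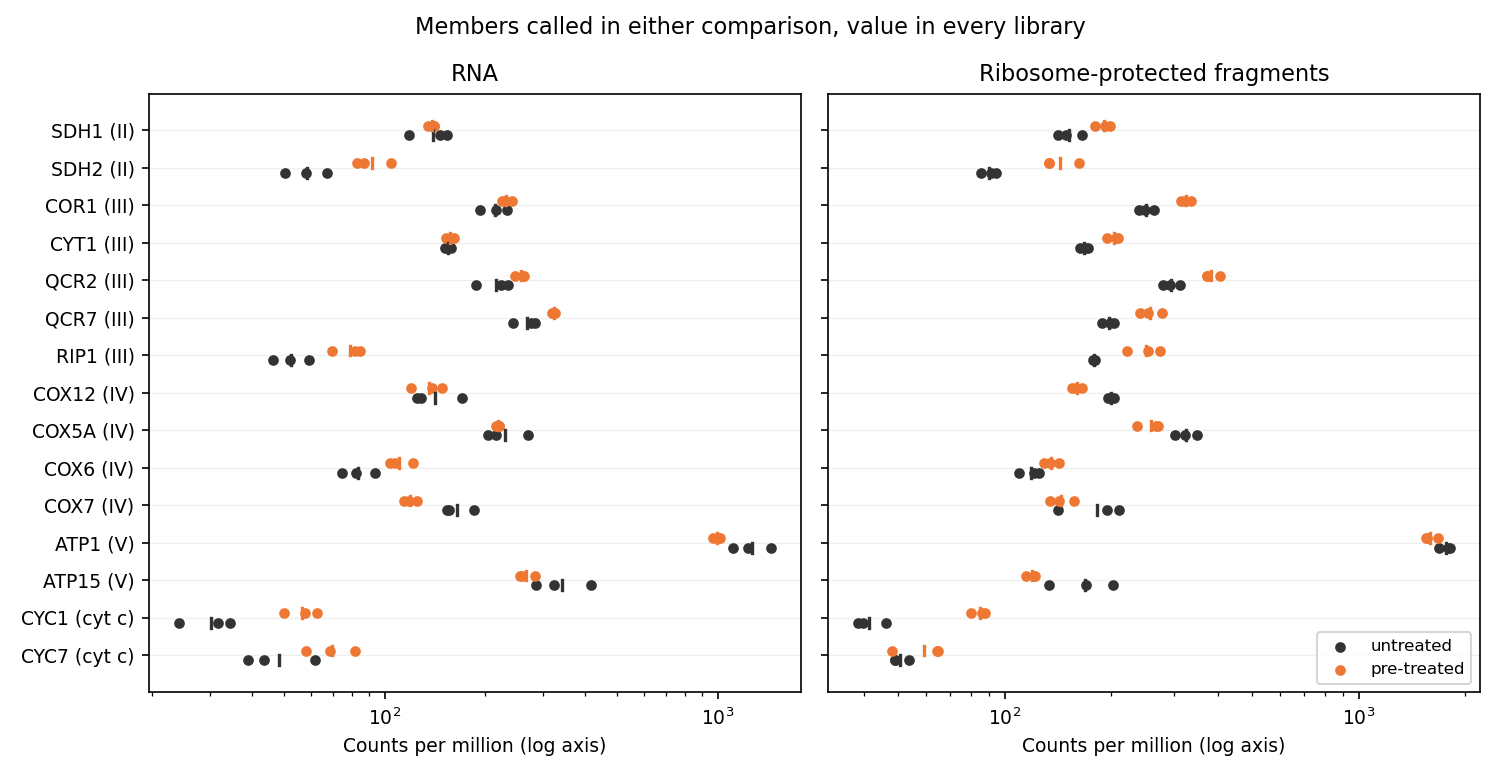
CPM on a log axis of the 15 members called in RNA or in fragments, in each untreated and each pre-treated library, with RNA on the left and fragments on the right. Points are libraries and bars their means; CYC1 moves farthest, from means of 30.1 to 56.7 CPM in RNA and of 41.4 to 84.9 CPM in fragments.

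In complex V, the ATP synthase, the smallest subunit of the catalytic head fell in both measures, ATP1 fell in RNA, and the other 9 genes were called in neither. ATP15 (YPL271W, chromosome XVI, 30079 to 30267, plus strand), which encodes subunit epsilon, had RNA at 417, 323 and 285 CPM untreated and 282, 255 and 258 CPM pre-treated. Its fragments were at 133, 203 and 169.8 CPM untreated and 122, 121 and 114 CPM pre-treated. The groups did not overlap, by a narrow margin in RNA, where untreated replicate 3 stood at 285 and pre-treated replicate 1 at 282 CPM. RNA fell to 0.768 times (log2 -0.38, SE 0.12, adjusted p = 0.0288) and fragments to 0.703 times the untreated level (log2 -0.51, SE 0.12, adjusted p = 0.00578). The RNA call ended with DESeq2 (adjusted p = 0.0611) and without untreated replicate 1 (0.223, log2 -0.21) or pre-treated replicate 1 (0.0537), 2 (0.148) or 3 (0.112). The fragment call ended in the combined table of the series (adjusted p = 0.0771) and without untreated replicate 2 (0.0857).

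ATP1 (YBL099W, chromosome II, 37053 to 38690, plus strand), subunit alpha, fell in RNA, from 1232, 1447 and 1114 CPM untreated to 1015, 969 and 1006 CPM pre-treated. All pre-treated values lay lower (0.786 times, log2 -0.35, SE 0.10, adjusted p = 0.0232). Without untreated replicate 2 the adjusted p was 0.108, and without pre-treated replicate 1, 2 or 3 it was 0.0762, 0.148 and 0.0769. ATP1 fragments were at 1789, 1812 and 1687 CPM untreated and 1669, 1562 and 1547 CPM pre-treated (log2 -0.15, SE 0.08, adjusted p = 0.233). ATP2, subunit beta, had 1170.2, 1371 and 1058 CPM untreated and 1085, 1065 and 1089 CPM pre-treated in RNA (log2 -0.16, SE 0.10, adjusted p = 0.351) and 1755, 1831 and 1737 CPM untreated and 1826, 1736 and 1717 CPM pre-treated in fragments (log2 -0.01, SE 0.07, adjusted p = 0.943), with overlapping groups in both.

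ATP20 had the highest change of complex V in both measures. In RNA it was at 103, 126 and 99.0 CPM untreated and 125, 129.8 and 124 CPM pre-treated (log2 0.19, SE 0.12, adjusted p = 0.332) and in fragments at 123, 144 and 137 CPM untreated and 139.7, 142 and 139 CPM pre-treated (log2 0.06, SE 0.10, adjusted p = 0.805), with overlapping groups. The other 7 genes of complex V, ATP3, ATP4, ATP5, ATP7, ATP14, ATP16 and ATP17, were called in neither, with RNA changes between -0.22 and 0.10 and fragment changes between -0.30 and 0.02 on the log2 scale. ATP16 was called lower in fragments with upper-quartile scaling, with no filter and without untreated replicate 3.

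Cytochrome c, the small haem protein that moves between complexes III and IV, is encoded by CYC1 (iso-1, the main form with oxygen) and CYC7 (iso-2, known from low oxygen). CYC1 (YJR048W, chromosome X, 526335 to 526664, plus strand) had the largest rise of the 36 members in both measures. Its RNA was at 24.1, 31.7 and 34.3 CPM in the untreated libraries and 62.5, 57.7 and 49.8 CPM in the pre-treated ones. Its fragments were at 38.4, 46.1 and 39.7 CPM in the untreated libraries and 88.1, 80.3 and 86.4 CPM in the pre-treated ones. The lowest pre-treated fragment value was 80.3 CPM and the highest untreated one 46.1 CPM. CYC1 rose 1.94-fold in RNA (log2 0.96, SE 0.17, adjusted p = 0.000184) and 2.04-fold in fragments (log2 1.03, SE 0.14, adjusted p = 5.22e-06), and both calls held under every alternative run.

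CYC7 (YEL039C, chromosome V, 79636 to 79977, minus strand) also rose in RNA, from 43.5, 38.9 and 62.1 CPM untreated to 81.5, 68.5 and 58.3 CPM pre-treated. Here the groups overlapped, since untreated replicate 3 at 62.1 CPM lay above pre-treated replicate 3 at 58.3 CPM (1.53-fold, log2 0.61, SE 0.16, adjusted p = 0.0121). The call ended with DESeq2 (adjusted p = 0.0635) and without untreated replicate 1 (0.0627) or 2 (0.0947) or pre-treated replicate 1 (0.0996). CYC7 fragments were at 53.6, 48.8 and 49.0 CPM untreated and 64.7, 64.1 and 48.1 CPM pre-treated and did not pass (log2 0.22, SE 0.15, adjusted p = 0.409).

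The NADH dehydrogenases feed electrons to ubiquinone from the matrix (NDI1) and from the cytosol (NDE1). Neither gene was called. NDI1 (YML120C, chromosome XIII, 28266 to 29807, minus strand) had RNA at 91.3, 85.4 and 91.1 CPM untreated and 103, 112 and 104 CPM pre-treated (log2 0.26, SE 0.12, adjusted p = 0.166). Its fragments were at 218, 193 and 184 CPM untreated and 246, 232 and 225 CPM pre-treated (log2 0.24, SE 0.10, adjusted p = 0.115). NDE1 (YMR145C, chromosome XIII, 554793 to 556475, minus strand) had RNA at 645, 813 and 644 CPM untreated and 628, 631 and 543 CPM pre-treated (log2 -0.23, SE 0.11, adjusted p = 0.169) and fragments at 1005, 936 and 934 CPM untreated and 900.4, 846 and 727 CPM pre-treated (log2 -0.22, SE 0.09, adjusted p = 0.103). The groups were apart in all 4 cases, upward for NDI1 and downward for NDE1. NDE1 was called lower in fragments with upper-quartile scaling and without pre-treated replicate 1, and NDI1 higher in fragments without untreated replicate 1.

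No member was called for a change in translational efficiency. The test was the interaction of library type with treatment in 1 model of the 12 libraries, made with edgeR and, as an alternative, with DESeq2. Over all genes, 0.018% were called, 1 of 5552. With a block that ties each RNA library to the fragment library sharing its replicate number, 0 members and 29 of all genes were called. SDH1 (log2 0.37, SE 0.15, adjusted p = 0.522) and COR1 (log2 0.29, SE 0.13, adjusted p = 0.605) were the 2 members with an unadjusted p under 0.05. Over all genes 439 of 5552 had one under 0.05. The ratio of SDH1 was 0.53, 0.46 and 0.69 in untreated and 0.95, 0.81 and 0.92 in pre-treated pairs of libraries. This is the scale where the median gene is 0. For COR1 it was 0.56, 0.53 and 0.88 and 0.93, 0.84 and 1.00. The pre-treated values were above the untreated ones for SDH1, while for COR1 the lowest pre-treated value was below the highest untreated one.

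The median log2 change in efficiency was 0.14 for complex II, 0.12 for complex III, -0.18 for complex IV and -0.03 for complex V, beside 0.005 over all genes. The extremes by complex were SDH2 (log2 0.02, SE 0.19, adjusted p = 0.985) in complex II, QCR9 (log2 -0.28, SE 0.19, adjusted p = 0.721) in complex III, COX7 (log2 0.14, SE 0.17, adjusted p = 0.885) and COX6 (log2 -0.24, SE 0.16, adjusted p = 0.721) in complex IV, and ATP7 (log2 0.22, SE 0.12, adjusted p = 0.668) and ATP16 (log2 -0.16, SE 0.16, adjusted p = 0.848) in complex V. For the cytochrome c genes the changes were log2 0.08, SE 0.22 for CYC1 and log2 -0.38, SE 0.23 for CYC7, and for the NADH dehydrogenases log2 0.02, SE 0.14 for NDE1 and log2 -0.01, SE 0.15 for NDI1. Leaving out both libraries of each treatment and replicate number in turn moved the medians. They lay between 0.02 and 0.29 for complex II, 0.05 and 0.15 for complex III and -0.19 and -0.09 for complex IV. That of complex V turned to 0.06 without untreated replicate 1 or 2.

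Several members have a paralog that encodes a form of the same subunit. Of the paralogs outside the 36, SDH9 rose and SHH3 and NDE2 fell in both measures, and SHH4 rose in fragments. COX5B was called in neither. Over all genes 13.2% were called in RNA and 13.4% in fragments. SDH9 (YJL045W), a minor flavoprotein paralog of SDH1, rose in RNA from 6.29, 5.63 and 3.96 CPM untreated to 14.5, 14.4 and 16.0 CPM pre-treated (2.65-fold, log2 1.40, SE 0.29, adjusted p = 0.00153). In fragments it was at 2.40, 2.03 and 3.38 CPM untreated and 9.64, 9.45 and 9.13 CPM pre-treated (3.58-fold, log2 1.84, SE 0.42, adjusted p = 0.00271). The groups were apart in both. The RNA call held under all 12 alternatives and the fragment call under the 11 that gave an adjusted p. However, SDH9 had 3 to 4 fragment counts in an untreated library and 14 to 15 in a pre-treated one. It entered both tests through the pre-treated libraries, since 2 of 3 untreated RNA libraries and 0 of 3 untreated fragment libraries reached the minimum count, so its calls are a description, not a test. SDH1 held 96.4% ± 0.4 of the TPM of the pair in untreated RNA and 90.2% ± 0.5 in pre-treated RNA (SD, n = 3), and 98.3% ± 0.6 and 95.2% ± 0.3 in fragments.

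SHH3, the paralog of the membrane anchor SDH3, fell where SDH3 did not pass. Its RNA was at 206, 183 and 173 CPM untreated and 143, 135 and 124 CPM pre-treated (log2 -0.49, SE 0.11, adjusted p = 0.00258). SHH3 fragments were at 76.0, 76.6 and 81.1 CPM untreated and 54.4, 58.7 and 51.1 CPM pre-treated (log2 -0.51, SE 0.13, adjusted p = 0.00964); this call ended with DESeq2 (adjusted p = 0.0675) and without pre-treated replicate 3 (0.055). SDH3 held 31.1% ± 0.9 of the pair's TPM in untreated RNA and 42.0% ± 2.8 in pre-treated RNA, and 42.8% ± 4.2 and 56.9% ± 2.9 in fragments, with the groups apart in both. SHH4, the paralog of SDH4, rose in fragments from 16.8, 13.6 and 22.8 CPM untreated to 36.5, 30.4 and 26.2 CPM pre-treated (log2 0.82, SE 0.23, adjusted p = 0.0148), a call that ended with DESeq2 (adjusted p = 0.0833) and without untreated replicate 2 (0.111) or pre-treated replicate 1 (0.0679) or 2 (0.0548).

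NDE2, the second external NADH dehydrogenase, fell in RNA from 222, 214 and 195 CPM untreated to 143, 151 and 147 CPM pre-treated (log2 -0.53, SE 0.10, adjusted p = 0.000662). In fragments it fell from 194, 202 and 192 CPM untreated to 108, 123 and 139 CPM pre-treated (log2 -0.66, SE 0.11, adjusted p = 4.92e-05). Both calls held under every alternative run. NDE1 held 76.3% ± 2.4 of the TPM of this pair in untreated RNA and 79.9% ± 1.5 in pre-treated RNA, and 82.6% ± 0.8 and 86.5% ± 2.8 in fragments. CYC1 held 45.9% ± 3.4 of the cytochrome c fragments per length before and 60.0% ± 4.5 after pre-treatment, with the groups apart, and 39.6% ± 5.4 and 46.0% ± 1.5 of the RNA, with overlap. COX5A held 48.3% ± 6.3 of the RNA of its pair with COX5B, the isoform known from low oxygen, and 75.1% ± 1.5 of the fragments in untreated cultures. After pre-treatment these shares were 49.0% ± 0.6 and 73.0% ± 3.4. No test of these shares was made, and reads shared by both genes of a pair may be missing from both counts.

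**Figure D5:**
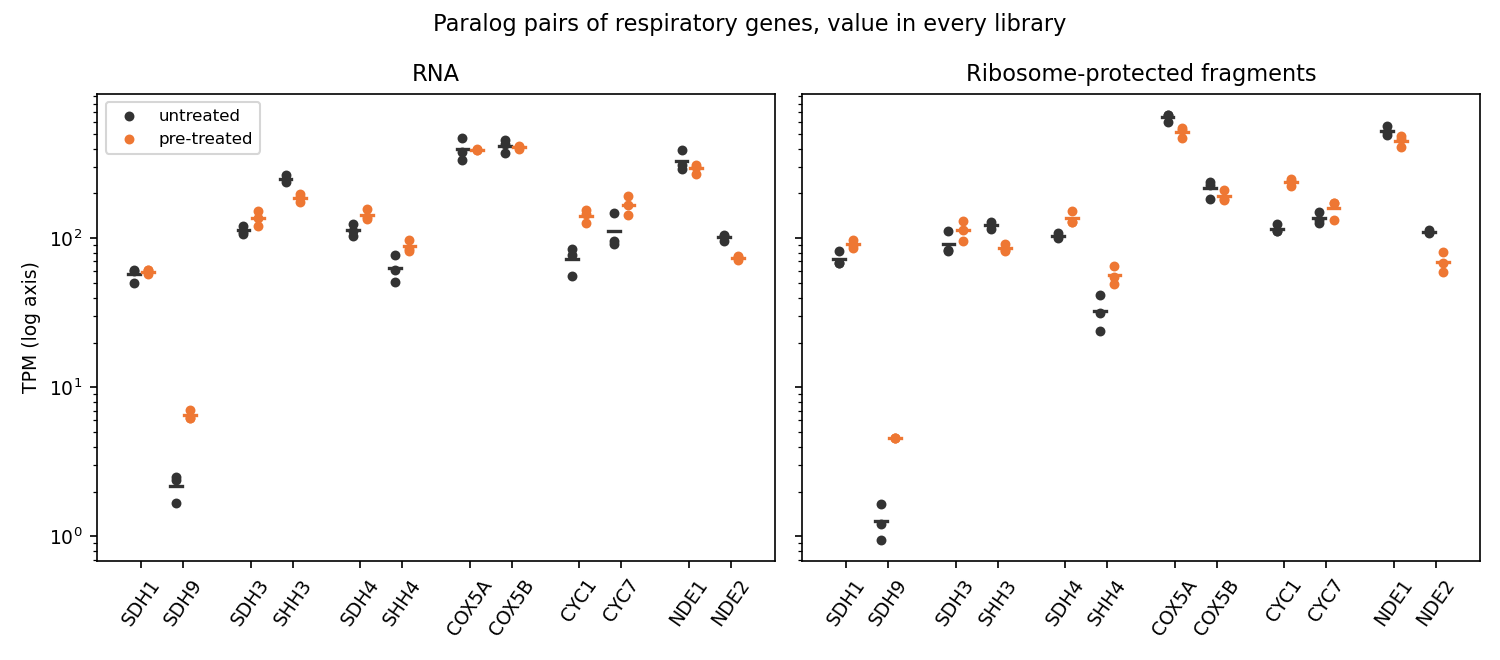
TPM on a log axis of 6 pairs of paralogs in each untreated and each pre-treated library, with RNA on the left and fragments on the right. Points are libraries and bars their means; SDH9 and CYC1 shift upward after pre-treatment in both panels, while SHH3 and NDE2 shift downward.

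The other subunits and isoforms beside the 36, a list of 14 with these paralogs, had 2 genes higher and 3 lower in RNA and 2 higher and 4 lower in fragments, with medians of -0.17 and -0.13 on the log2 scale, beside -0.002 and -0.009 over all genes. Over all genes 7.17% were called higher and 6.06% lower in RNA, and 8.53% and 4.85% in fragments. SDH9 is 1 of the 2 higher in each. RCF1, a factor that links complexes III and IV, rose in RNA (log2 0.42, SE 0.14, adjusted p = 0.0458), a call that ended in 10 of the 12 alternatives (adjusted p from 0.0503 to 0.257). ATP18, subunit i/j of the ATP synthase, fell in RNA (log2 -0.39, SE 0.11, adjusted p = 0.0197) and in fragments (log2 -0.45, SE 0.13, adjusted p = 0.0268). Without untreated replicate 2 its adjusted p was 0.11 in RNA and 0.148 in fragments. The RNA call of ATP18 also ended without pre-treated replicate 1 (0.0592) or 2 (0.15), and the fragment call without untreated replicate 3 (0.179) or pre-treated replicate 2 (0.166). STF2, which stabilises the inhibited ATP synthase, fell in fragments from 1184, 1283 and 1154 CPM untreated to 898, 995 and 853 CPM pre-treated (log2 -0.40, SE 0.08, adjusted p = 0.00105).

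Of 28 assembly factors of complex IV, 3 were called in RNA, beside 13.2% of all genes: COA4 rose (log2 0.73, SE 0.18, adjusted p = 0.00704) and COX14 (log2 -0.66, SE 0.16, adjusted p = 0.0072) and SHY1 (log2 -0.50, SE 0.16, adjusted p = 0.0351) fell in RNA. In fragments SHY1, which acts in the assembly of the mitochondrially encoded core, was the only one of 26 called, beside 13.4% of all genes, at 38.4, 36.6 and 34.6 CPM untreated and 21.3, 21.6 and 21.3 CPM pre-treated (log2 -0.77, SE 0.19, adjusted p = 0.00516). In RNA the calls of COA4 (adjusted p = 0.0547), COX14 (0.0783) and SHY1 (0.109) ended without untreated replicate 1. That of SHY1 also ended without untreated replicate 2 (0.0522) or pre-treated replicate 1 (0.118), 2 (0.0629) or 3 (0.119). Of 12 factors of complex V, 1 was called in RNA and 1 in fragments, beside the same shares of all genes. It was NCA3, which fell in RNA (log2 -0.72, SE 0.15, adjusted p = 0.00167) and fragments (log2 -0.69, SE 0.15, adjusted p = 0.00363), under every alternative run. Factors of complex III (11 in RNA, 9 in fragments) and of complex II (5 and 4) had 0 calls; 0 and 1 of them had an unadjusted p under 0.05 in RNA and 0 and 0 in fragments.

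Among 6 genes of cytochrome c maturation and its partners, 3 were called in RNA and 1 in fragments, beside 13.2% and 13.4% of all genes. CCP1 rose in both measures. CCP1 encodes the cytochrome c peroxidase of the intermembrane space. Its RNA was at 69.8, 59.9 and 50.2 CPM untreated and 154, 158 and 139 CPM pre-treated (2.45-fold, log2 1.29, SE 0.13, adjusted p = 5.99e-08). CCP1 fragments were at 58.4, 46.1 and 55.7 CPM untreated and 114, 117 and 119.9 CPM pre-treated (2.20-fold, log2 1.14, SE 0.13, adjusted p = 2.77e-07). The groups were apart and both calls held under every alternative run. CYC3, the haem lyase that attaches haem to cytochrome c, fell in RNA from 367, 276 and 271 CPM untreated to 214, 210.1 and 211 CPM pre-treated (log2 -0.54, SE 0.11, adjusted p = 0.00146), also under every alternative run. ERV1, a sulfhydryl oxidase that passes electrons to cytochrome c, rose in RNA (log2 0.38, SE 0.13, adjusted p = 0.0464), a call that ended in 10 of the 12 alternatives (adjusted p from 0.0517 to 0.176).

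The lists of this paragraph stand beside 13.2% of all genes called in RNA and 13.4% in fragments. Of 15 regulators of respiratory genes, 1 was called in RNA and 2 in fragments. MOT3 fell in RNA (log2 -0.39, SE 0.13, adjusted p = 0.037). In fragments CAT8, an activator of genes for growth without glucose, fell (log2 -0.42, SE 0.13, adjusted p = 0.032). So did ROX1, the repressor of hypoxic genes, at 178, 186 and 183 CPM untreated and 114, 106 and 146 CPM pre-treated (log2 -0.57, SE 0.11, adjusted p = 0.000652). The MOT3 call ended without untreated replicate 1 (adjusted p = 0.213) or pre-treated replicate 1 (0.122), 2 (0.164) or 3 (0.0798). The CAT8 call ended without untreated replicate 1 (0.0677), 2 (0.0771) or 3 (0.0619) or pre-treated replicate 1 (0.101) or 2 (0.116). HAP4, the regulated subunit of the activator of respiratory genes, had an RNA change of log2 -0.26, SE 0.36 (adjusted p = 0.711), and HAP1, the haem-responsive activator, one of log2 0.03, SE 0.10 (adjusted p = 0.896). Of 11 ubiquinone synthesis genes, COQ6 was called higher in RNA (log2 0.40, SE 0.12, adjusted p = 0.0286) and 0 in fragments, where 2 had an unadjusted p under 0.05. Of 4 tested carriers of ADP, ATP and phosphate, MIR1, the phosphate carrier, was called lower in RNA (log2 -0.34, SE 0.10, adjusted p = 0.0221) and 0 in fragments, where 1 had an unadjusted p under 0.05. The COQ6 call ended in 7 of the 12 alternatives (adjusted p from 0.0529 to 0.133) and the MIR1 call in 4 (from 0.0508 to 0.113). With DESeq2 the RNA calls of COA4 (adjusted p = 0.0543), SHY1 (0.154), ATP18 (0.0549) and MOT3 (0.111) and the fragment calls of ATP18 (0.0923) and CAT8 (0.168) also ended.

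Glucose-repressed genes outside the respiratory chain, which like it are used when glucose is short, were lower or not called. Of 26 tested in RNA 0 rose and 14 fell (median log2 -0.52), and of 22 tested in fragments 0 rose and 14 fell (median -0.61), beside 6.06% of all genes lower in RNA and 4.85% in fragments. Of the 14 that fell in each measure, 1 in RNA and 4 in fragments passed the filter on low counts only through the untreated libraries, where they are high. GUT2, the mitochondrial glycerol 3-phosphate dehydrogenase that also feeds ubiquinone, fell in fragments from 755, 706 and 711 CPM untreated to 421, 413 and 467 CPM pre-treated (log2 -0.74, SE 0.08, adjusted p = 2.95e-07). Its RNA was at 461, 479.9 and 378 CPM untreated and 254, 279.9 and 268 CPM pre-treated (log2 -0.73, SE 0.10, adjusted p = 1.25e-05). ICL1, isocitrate lyase, fell in fragments from 60.0, 73.9 and 61.7 CPM untreated to 31.0, 25.6 and 20.7 CPM pre-treated (log2 -1.35, SE 0.17, adjusted p = 1.61e-06), and JEN1, the lactate transporter, fell in RNA from 76.1, 87.0 and 80.5 CPM untreated to 43.6, 42.8 and 39.5 CPM pre-treated (log2 -0.95, SE 0.13, adjusted p = 9.72e-06). Beside this fall, the medians of complexes II and III lay above 0 and those of complexes IV and V below 0 in both measures. Over all 36 members the median log2 change was -0.02 in RNA and -0.02 in fragments. The part of culture density or glucose left at harvest in these results was not tested. In the efficiency test 0 genes of any of these lists were called by edgeR. Among the glucose-repressed genes 5 of 26 had an unadjusted p under 0.05, beside 439 of all 5552 genes tested.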

How the data were processed

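The authors deposited 1 file of raw read counts per exon feature for each library. They counted reads with featureCounts 1.6.2, per the file headers, with strand taken into account, using R64-1-1 genes plus a plasmid and no option for reads that map to several places or overlap several features. The tools SAMtools 1.9, STAR 2.7.1a and cutadapt 1.18 and the build sacCer3 are named in the submitters' processing notes. A combined count table, whose making is not stated, served as an alternative. Counts of 7557 features were summed to 7130 identifiers, of which 6048 matched a symbol.

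Tests used R 4.3.3, edgeR 4.0.16 (robust quasi-likelihood F test, TMM, filterByExpr with a minimum count of 10 and total of 15) and limma 3.58.1, with DESeq2 1.42.0 as an alternative, on all genes, with Benjamini-Hochberg adjustment and a threshold of 0.05. RNA and fragments were compared over 6 libraries each, and efficiency as an interaction over 12. SE is that of the fitted log2 change. CPM are TMM-scaled within a library type. Efficiency levels used a pseudocount of 0.5 counts and paired RNA with fragments of the same number and treatment. The script was tested on data simulated with the same dispersion for all genes. That test checks the code, not the spread between these libraries.

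The members and gene lists were chosen with earlier results of these data known. Members were given in full where called, or where highest or lowest of a complex, and genes of other lists by name, up to 6 per list, where called, in order of adjusted p; HAP1 and HAP4 were named after their values were seen. Alternatives were other scalings, no filter, DESeq2, the combined table, the replicate number as a block and leaving out each replicate. Promoter motifs were not analysed here.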

Additional observations from a re-analysis of the deposited data

How the results depend on the processing

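Of the changes by complex, some medians moved by less than 1 SD over the pre-treated libraries under every alternative. These were complex II and cytochrome c in RNA and fragments and complex III in fragments. The SD was that of each set's own median, so a wider spread allowed a larger move. Leaving out each replicate in turn gave RNA medians from 0.13 to 0.28 for complex II and from 0.68 to 0.89 for cytochrome c. DESeq2 called 5 members in RNA in place of 8, and over all genes 492 in RNA in place of 738 and 454 in fragments in place of 681. Upper-quartile scaling moved the median of complex V to -0.15 in RNA, -0.15 in fragments and -0.059 in efficiency, and the efficiency change of SDH2 to -0.0025. The combined table moved the efficiency median of complex V to 0.0058. In counts per kilobase with TMM scaling in place of TPM, untreated levels were 94.1 for complex II in RNA, and in fragments 122 for complex II, 317 for complex III, 857 for complex IV, 744 for complex V, 157 for cytochrome c and 401 for the NADH dehydrogenases, in the same order as in TPM.

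Leaving out each replicate in turn gave 4 to 8 members called in RNA and 6 to 13 in fragments. All genes called were 407 in RNA and 442 in fragments without pre-treated replicate 2. The RNA medians ran from 0.039 to 0.16 for complex III, from -0.16 to 0.0093 for complex IV and from -0.18 to -0.036 for complex V. The fragment medians ran from -0.29 to -0.13 for complex IV and from -0.14 to -0.012 for complex V. The efficiency medians ran from -0.19 to -0.094 for complex IV, from -0.041 to 0.056 for complex V and from -0.28 to -0.068 for cytochrome c. Of the members given in full (11 in RNA, 16 in fragments, 8 in efficiency), those whose change turned sign were SDH1 in RNA (-0.11 to 0.035), ATP20 in fragments (-0.00066 to 0.11), and COX7 (-0.12 to 0.34) and SDH2 (-0.16 to 0.18) in efficiency, none of them called. Each of these fits also had fewer libraries, and why the counts and medians moved was not tested.

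The labels did not tie the replicate numbers to the 3 colonies, and weak correlations of the libraries' deviations cannot settle that link. In RNA, same-numbered untreated and pre-treated libraries had correlations of 0.0078, 0.074 and 0.050, and differently numbered ones from -0.061 to 0.0082. In fragments they were -0.14, -0.0080 and -0.062 for the same number and from -0.050 to 0.105 for different numbers. With the replicate number as a block, 8 members were called in RNA and 9 in fragments, without SDH1 (adjusted p = 0.0501) and CYT1 (0.0880), and the RNA calls of RCF1 (0.0530), SHY1 (0.0580), ERV1 (0.0781), MOT3 (0.0614) and COQ6 (0.0529) ended. Between RNA and fragments the same-number correlations were 0.058, 0.034 and 0.10 in untreated and 0.14, 0.11 and 0.19 in pre-treated cultures. With a block for each treatment and replicate number 0 members were called in efficiency, and 29 of all genes in place of 1. The libraries hold as few as 26 counts of a member, in untreated RNA replicate 3, which limits the smaller changes.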
